A study of Rattus norvegicus with 6 samples.

Results

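The E2F and DP transcription factors are described here in replicating and quiescent β-cells of the rat. The members were the probes of the array whose gene name was E2f1 to E2f8, Tfdp1 or Tfdp2, a rule that reads no measured value. The genes of this rule and of the lists below were, however, chosen with earlier results of these data known. Of the 10 genes of the rule 9 were found, with 13 probes among the 45598 probes and 27103 genes of the array. E2f4, E2f7, E2f8 and Tfdp2 had 2 probes each and the other 5 genes had 1 probe each. No probe carried E2f5 as its gene name. A further 3 probes were named as E2f5 (2 probes) or E2f8 (1 probe) only in the description column of the array files; they lie outside the rule, were added after values had been seen, and are given apart from the member counts.

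RNA came from 3 islet preparations, each from 4 young adult male Wistar rats, and both cell fractions of a preparation came from the same rats. Islets were cultured overnight at a basal glucose concentration with EdU, a thymidine analogue that enters newly made DNA, and all arrays therefore come from EdU-exposed cells. Dispersed cells were stained with Newport Green, a dye that binds zinc, fixed, and sorted as large, granular, Newport Green bright cells, which were then parted into EdU-positive cells (replicating β-cells, n = 3) and EdU-negative cells (quiescent β-cells, n = 3). EdU marks any cell that passed through S phase during the culture, so the replicating fraction can hold cells of S phase and of later phases, and p-values measure the spread between 3 pools of rats.

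E2F proteins are transcription factors of the G1 to S transition, and most of them bind DNA as a dimer with a DP protein. E2F1, E2F2 and E2F3 are activators held in check by the retinoblastoma protein, whereas E2F4 and E2F5 act mostly as repressors with the related pocket proteins p107 and p130, and E2F6 represses without a pocket protein, as part of a Polycomb complex. E2F7 and E2F8 are atypical members that bind DNA without a DP partner and repress E2F target genes late in S phase and beyond. In β-cells, as in other cells, phosphorylation of the retinoblastoma protein by cyclin-dependent kinases releases the activators.

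All 6 arrays lay on 1 slide scanned on 1 day. Between 80.8% and 98.5% of probes were well above background on each array. The quiescent arrays of preparations 1 and 2 were at 96.4% and 98.5%, and the others at 80.8% to 87.3%. The quiescent array of preparation 2 stood apart: its Pearson correlation with the other arrays was 0.654 to 0.83, against 0.867 to 0.986 among the rest, and it held 1583 outlier spots against 252 to 299. The quiescent array of preparation 1 was also apart, at 0.867 to 0.887 with the replicating arrays and the quiescent array of preparation 3. Those arrays correlated with each other at 0.943 to 0.986. Among them, the quiescent array of preparation 3 correlated with the replicating arrays at 0.943 to 0.969. Values are therefore given for each preparation, and member results are also given without a preparation where that changed the call. A gene was called higher where its brightest probe had an unadjusted p of at most 0.05 and a log2 ratio of at least 1 in a paired limma fit, and lower with a ratio of at most -1; a log2 ratio is the replicating minus the quiescent log2 value. The 13 β-cell markers on the array (of 14 listed) were well above background on all 6 arrays, and 1 of them, Mafa, was called lower (log2 ratio -1.01). Markers of several other cell types, but not of all, were higher in the replicating fraction. All 12 fibroblast and stellate cell markers had a log2 ratio above 0 (4 called higher, among them Col6a3 at 3.06, whose other probe gave 0.82). Their mean level was 8.97 to 10.18 in replicating against 8.13 to 8.41 in quiescent samples, and 11 of 12 were well above background on every array. Of the 7 alpha cell markers 2 were called higher (Gcg, 2.39, and Gc, 1.86), as were 2 of 3 delta cell markers (Sst, 1.74, and Rbp4, 1.49), 1 of 2 PP cell markers (Ppy, 1.21), 2 of 7 immune cell markers, 1 of 7 acinar markers, 1 of 6 duct markers and 0 of 6 endothelial markers. Over all genes 4.24% were called higher. By sign, 5 of 7 alpha cell, 3 of 3 delta cell, 2 of 2 PP cell, 6 of 7 immune and 5 of 7 acinar markers were above 0. The same held for 3 of 6 endothelial and 1 of 6 duct markers, with medians of -0.12 and -0.33. The part of these other cell types in the results on E2F and DP genes was not tested. In sorted pools, more cells that hold a transcript and more transcript per cell cannot be told apart.

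Among the 9 genes, each read by its brightest probe with its gene name, E2f7 and E2f2 showed the largest differences. E2f7 was 18.1-fold and E2f2 4.99-fold higher in replicating β-cells, each in all 3 preparations and with no overlap between the groups. The brightest probe was taken by its mean over all 6 arrays, so this choice uses the compared values. In quiescent β-cells the other E2f7 probe was the brighter one (mean 8.15 against 7.96), and its log2 ratio was 0.01. The 18.1-fold difference and the rank of E2f7 thus rest on a probe chosen through its replicating mean of 12.14. Tfdp2 was 2.32-fold higher, and E2f1, E2f3, E2f4, E2f6, E2f8 and Tfdp1 did not pass the test. By this rule 3 of 9 genes were called higher and 0 lower, where 4.24% of all genes were called higher and 4.69% lower. The same 3 genes, E2f2, E2f7 and Tfdp2, were higher in all 3 preparations (14.2% of all genes) and had all replicating arrays above all quiescent arrays (8.44% of all genes). After Benjamini-Hochberg adjustment in limma no probe of the array reached an adjusted p under 0.05 (0.0% of probes, lowest adjusted p 0.0977), while 4379 of 45598 probes had an unadjusted p under 0.05, so each call below rests on the unadjusted p and no adjusted p passes. An exact two-sided permutation test of 3 arrays against 3 that ignores the pairing cannot go below a p of 0.1. A paired one has a still higher floor, and none was used. Of all probes, 4.44% were called higher.

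The fitted log2 ratio was above 0 for 9 of 9 genes, with a range of 0.13 to 4.17 and a median of 1.21. Over all genes 42.0% of ratios were above 0 and the median was -0.13. In preparation 1 the members' median was 1.59 with 8 of 9 genes above 0, and in preparation 2 it was 1.46, also with 8 of 9 genes above 0. In preparation 3 the median was -0.13 and 4 of 9 genes were above 0. The medians of all genes in the same preparations were -0.09, -0.13 and -0.05. By rank of the ratio among the 27103 genes, E2f7 stood at 23, E2f2 at 180, E2f1 at 1381, Tfdp2 at 1509 and E2f4 at 1535, followed by Tfdp1 (2666), E2f3 (5137), E2f6 (6344) and E2f8 (9358).

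**Figure D1:**
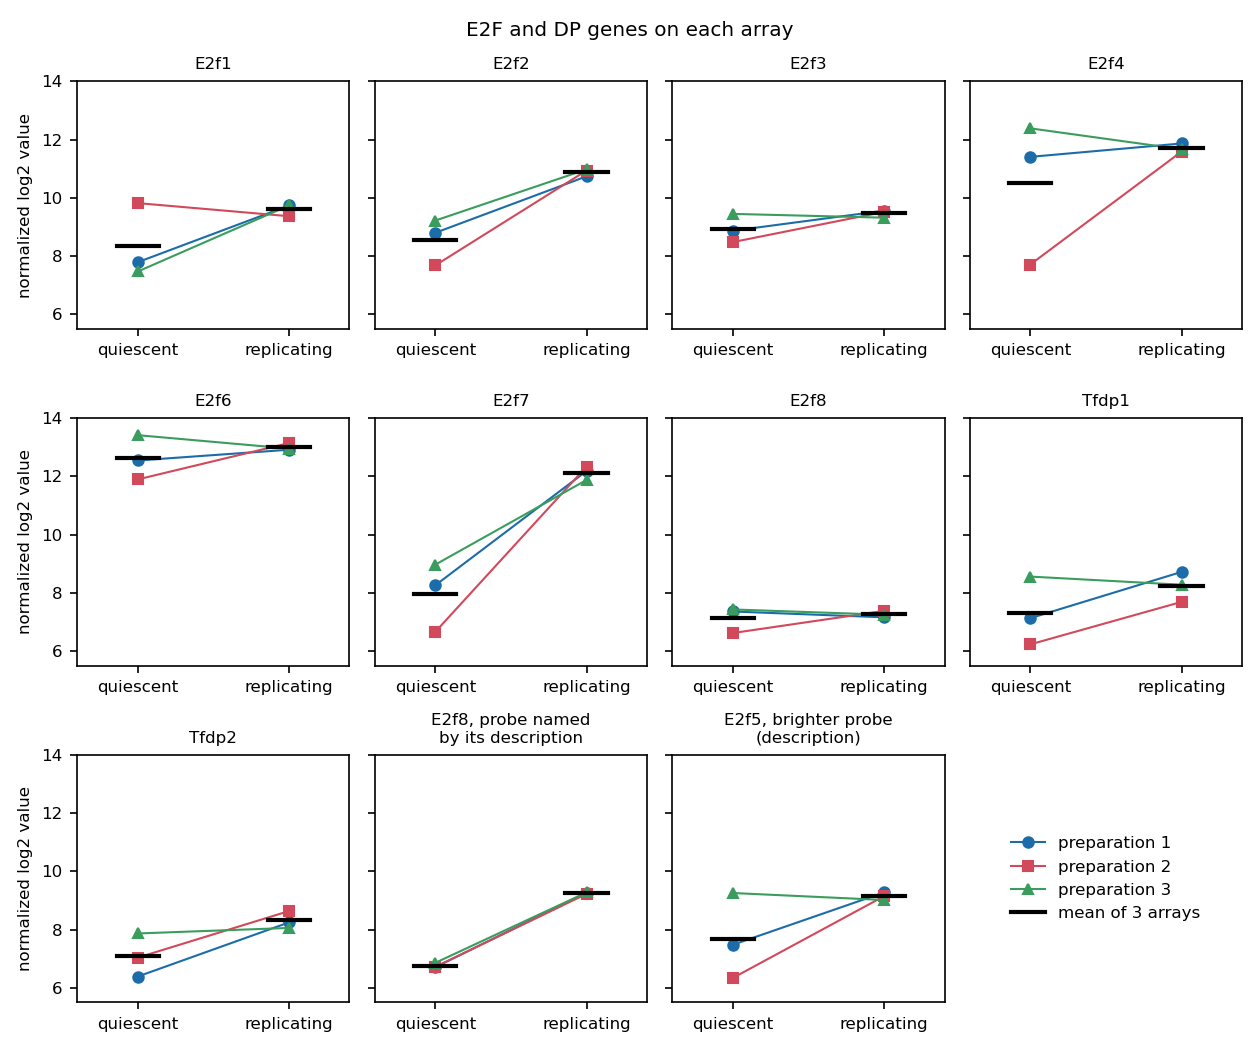
Normalized log2 values (vertical axis, no further unit) of each gene's brightest probe in quiescent and replicating β-cells, with the 2 arrays of a preparation joined by a line and the mean of 3 arrays as a black bar. The lines of E2f2, E2f7, Tfdp2 and the E2f8 probe named by its description rise in all 3 preparations, whereas the quiescent arrays of E2f4 lie between 7.71 and 12.39.

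Among the activators, E2f2 was the one called higher. Its values were 10.74, 10.94 and 10.98 in replicating β-cells of preparations 1, 2 and 3 and 8.80, 7.68 and 9.22 in quiescent β-cells. Every replicating array lay above every quiescent array, and the replicating arrays spanned 0.25 against 1.54 for the quiescent ones. The means were 10.89 ± 0.13 and 8.57 ± 0.80 (SD, n = 3), and the fitted log2 ratio was 2.32 (SE 0.42, adjusted p = 0.395). Without preparation 1, 2 or 3 the ratio was 2.51, 1.85 and 2.60, and E2f2 was called each time.

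E2f1, the founding member and an activator, gave 9.74, 9.37 and 9.74 in replicating β-cells and 7.79, 9.82 and 7.47 in quiescent β-cells. The replicating arrays were close to each other, and the quiescent array of preparation 2 lay above all of them. Within the preparations the log2 ratio was 1.95, -0.45 and 2.27, and the fit gave 1.26 (SE 0.61, adjusted p = 0.475), which did not pass the test. Without preparation 2, whose quiescent array stood apart on all probes, the ratio of E2f1 was 2.11 and it was called. Without preparation 1 or 3 it was 0.91 and 0.75 and was not called. Its probe lies on chromosome 3 at 145032731 to 145032790 of rn4, minus strand.

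E2f3, the third activator, gave 9.56, 9.52 and 9.32 in replicating and 8.87, 8.48 and 9.45 in quiescent β-cells. The groups overlapped through preparation 3, where the quiescent array was the higher one. The fitted log2 ratio was 0.53 (SE 0.37, adjusted p = 0.524) and stayed between 0.18 and 0.86 over 13 other ways of processing, with 0 calls. The probes of E2f2 and E2f3 have no position on rn4 in the array files.

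E2f4, a repressor that is found in the nucleus of resting cells with pocket proteins, had probes that gave opposite signs. The brighter probe gave 11.87, 11.59 and 11.67 in replicating β-cells and 11.41, 7.71 and 12.39 in quiescent β-cells. The quiescent values spanned 4.68, from below to above every replicating array. Its log2 ratio was 1.21 (SE 0.91, adjusted p = 0.546), and without preparation 2 it was -0.13. The other probe gave 9.46, 9.27 and 9.89 against 9.21, 10.77 and 10.58, with a ratio of -0.64 (SE 0.44, adjusted p = 0.518). The brighter probe lies on chromosome 19 at 35119437 to 35119496 of rn4 (plus strand), and the other one runs from 35115750 to 35118633, so that its 60 bases span 2884 bases of the genome, with 3687 bases between their starts. Neither probe passed the test, and the difference between them was not tested.

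E2f5, like E2f4 a repressor that acts with pocket proteins, could be read only through its 2 description-named probes. The brighter one gave 9.28, 9.15 and 9.02 in replicating β-cells and 7.48, 6.34 and 9.26 in quiescent β-cells. The replicating arrays were higher in preparations 1 and 2 and slightly lower in preparation 3. The fitted log2 ratio was 1.45 (SE 0.63, adjusted p = 0.475), and without preparation 3 it was 2.30 and was called. The dimmer probe, whose start lies 72 bases away on chromosome 2, gave ratios of 1.23, 1.37 and -0.43 in the 3 preparations and 0.72 in the fit (SE 0.47, adjusted p = 0.510), and without preparation 3 it was 1.30 and was called.

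E2f6, the Polycomb-linked repressor, gave 12.92, 13.15 and 12.96 in replicating and 12.55, 11.90 and 13.42 in quiescent β-cells. The groups overlapped, with the quiescent array of preparation 3 above every replicating array. Its fitted log2 ratio was 0.38 (SE 0.43, adjusted p = 0.673), and without preparation 2 it was -0.05. Its probe lies on chromosome 6 at 40510645 to 40510704 of rn4, plus strand.

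E2f7 and E2f8, the atypical members, each had probes that differed in their result, so the starts of their probes are shown, as the first 30 of 60 bases in the array files, 5′ to 3′, with the position of the whole probe on rn4. The array reads these positions and not the whole transcript. Capitals are not used because no motif is marked in the probes.
E2f7, chr7:49753503-49753562, plus strand: ccatctacttgtaacgctactacatgtaaa
E2f7, chr7:49748927-49748986, plus strand: catccacccggagtcccctggttacatgag
E2f8, chr1:98639453-98639512, minus strand: tctttcctaagagttatgttagctatcgag
E2f8 (named in the description), chr1:98640447-98640506, minus strand: atcctttgctgtttcagtctgtctttttgt
E2f8, chr1:98641689-98641748, minus strand: tgtccccacgtgtagaagcagctagcgtca

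The first E2f7 probe gave 12.19, 12.34 and 11.88 in replicating β-cells and 8.26, 6.66 and 8.97 in quiescent β-cells. The lowest replicating array lay well above the highest quiescent array. Its means were 12.14 ± 0.23 and 7.96 ± 1.18 (SD, n = 3), and the log2 ratio was 4.17 (SE 0.59, adjusted p = 0.227). Within the preparations the ratio was 3.93, 5.68 and 2.91, and over 13 other ways of processing it stayed between 3.42 and 4.80 and was called in all 13. Of all genes on the array, 99.9% had a lower ratio. With the median over both E2f7 probes in place of the brightest, the log2 ratio of the gene was 2.09 and it was still called.

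The second E2f7 probe starts 4576 bases upstream on rn4 and did not pass the test. It gave 8.34, 8.07 and 8.06 in replicating β-cells and 7.39, 9.84 and 7.21 in quiescent β-cells. The quiescent array of preparation 2 was again the one on the other side, and the fitted log2 ratio was 0.01 (SE 0.63, adjusted p = 0.993). Without preparation 2 it was 0.90, also not called. The ratios of the E2f7 probes differed by 4.16 in the fit, a difference that was not tested.

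E2f8 was not called by either probe that carries its gene name. The brighter of them gave 7.16, 7.38 and 7.25 in replicating and 7.36, 6.62 and 7.43 in quiescent β-cells, and the groups overlapped. Its log2 ratio was 0.13 (SE 0.36, adjusted p = 0.883). The other one gave 6.42, 6.69 and 6.95 against 6.21, 7.36 and 6.55, a ratio of -0.02 (SE 0.36, adjusted p = 0.986), and was well above background on 2 of 3 replicating arrays. The sign of the brighter probe turned with the scaling: it was -0.40 and -0.85 under scaling to the 75th percentile, settings that also moved the median of all genes to -0.44 and -0.76.

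The description-named E2f8 probe lies between these on chromosome 1 of rn4. It gave 9.27, 9.23 and 9.28 in replicating β-cells and 6.71, 6.72 and 6.86 in quiescent β-cells. The arrays of a group spanned 0.05 and 0.16, the smallest spans of the 16 probes, and the groups were far apart. Its log2 ratio was 2.50 (SE 0.30, adjusted p = 0.173), or 5.66-fold, and it was called in 13 of 13 other ways of processing, with a range of 2.15 to 3.13. Whether E2f8 counts as higher thus depends on which probe stands for it. None of the 16 probes shared a stretch of 16 bases with any other probe of the array.

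**Figure D2:**
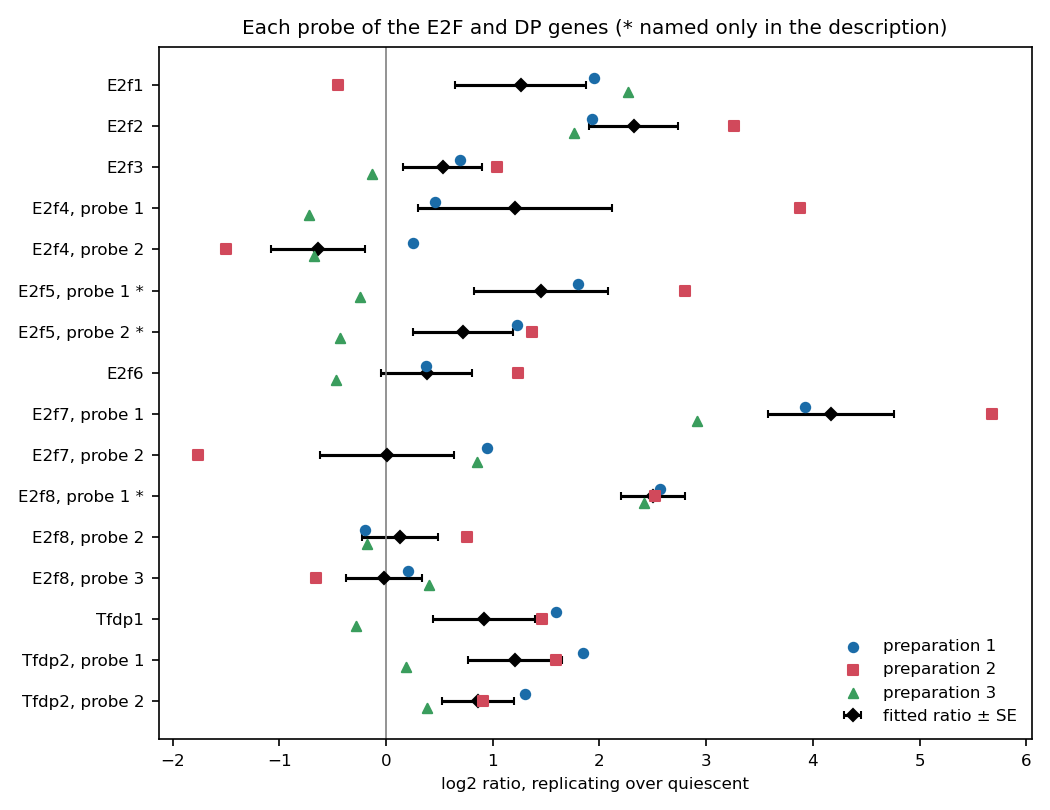
Log2 ratio of replicating over quiescent β-cells (horizontal axis) for the 16 probes, with a coloured mark for each preparation and a diamond with its standard error for the fit; probes are numbered within a gene by brightness, and an asterisk marks those named only in the description. The first E2f7 probe and the asterisked E2f8 probe have all marks on the right, whereas the second E2f7 and the second E2f4 probe have preparation 2 at -1.76 and -1.50.

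Of the dimerization partners, Tfdp2, which encodes DP2, was called higher. Its brighter probe gave 8.25, 8.64 and 8.06 in replicating and 6.39, 7.04 and 7.87 in quiescent β-cells. The groups did not overlap, but in preparation 3 they were 0.19 apart against 1.85 and 1.59 in the others. The log2 ratio was 1.21 (SE 0.44, adjusted p = 0.475). The call was lost without preparation 1 (log2 ratio 0.89) and without preparation 2 (1.02) and held without preparation 3 (1.72). The dimmer probe, 4759 bases away on chromosome 8, gave ratios of 1.30, 0.91 and 0.38 and 0.86 in the fit (SE 0.34, adjusted p = 0.475), and without preparation 3 it was 1.11 and was called.

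Tfdp1, which encodes DP1, the main partner of most E2F proteins, gave 8.72, 7.69 and 8.28 in replicating and 7.13, 6.23 and 8.56 in quiescent β-cells. The replicating array was higher in preparations 1 and 2 and lower in preparation 3. The log2 ratio was 0.92 (SE 0.48, adjusted p = 0.480), and it was 1.53 and called without preparation 3. Its probe lies on chromosome 16 at 81018468 to 81018527 of rn4, minus strand.

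The members' ratios within a preparation are set here beside the base composition of their probes. Of the 16 probes, 9 have under 40% G and C, and 9 of these 9 were above 0 in preparations 1 and 2 but 4 of 9 in preparation 3. Of all probes in that class, 62.2%, 56.2% and 35.2% were above 0 in preparations 1, 2 and 3. The 3 probes with over 50% G and C, the second E2f7 probe, the second E2f4 probe and the dimmest E2f8 probe, were all below 0 in preparation 2, at -1.76 to -0.66. The same 3 probes were all above 0 in preparation 1, at 0.21 to 0.95, and 2 of 3 were above 0 in preparation 3. Of all probes in that class, 37.8%, 39.5% and 58.7% were above 0 in preparations 1, 2 and 3. Over all probes of the array the median ratio was 0.23, 0.17 and -0.13 in preparations 1, 2 and 3 for the 15274 probes under 40% G and C. For the 6144 probes over 50% it was -0.22, -0.34 and 0.05. Across all probes, which are no replicates, Spearman's rho of base composition and ratio was -0.24, -0.17 and 0.21. E2f7 (first probe), E2f2 and the description-named E2f8 probe lay far above the median of their class in every preparation. The part of base composition in the members' ratios was not tested.

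**Figure D3:**
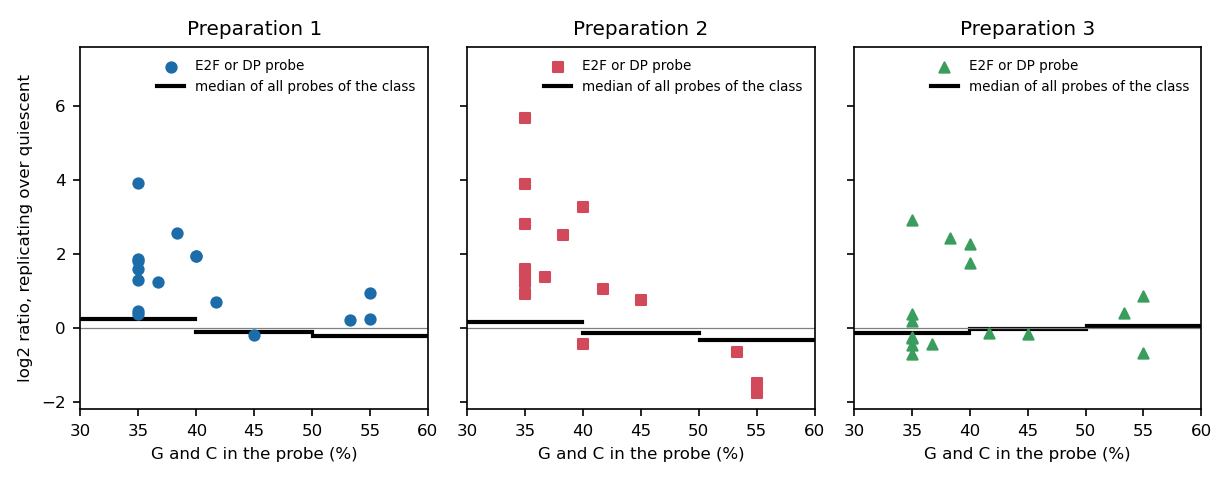
Log2 ratio of replicating over quiescent β-cells (vertical axis) against the share of G and C in the probe (horizontal axis, percent) for the 16 probes in each preparation; black bars are medians of all array probes under 40%, from 40 to 50% and over 50%. The 3 probes over 50% lie between 0.21 and 0.95 in preparation 1 and between -1.76 and -0.66 in preparation 2. In preparation 3 the members under 40% lie between -0.72 and 2.91.

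Likeness of profiles was measured over 20970 genes as the root mean square difference over the 6 arrays after each gene's mean was taken off. For E2f7 the nearest were Cks2, a subunit of cyclin-dependent kinases (0.299, log2 ratio 4.01), Arhgef39 (0.344, ratio 4.01) and Dlgap5, a spindle protein (0.361, ratio 3.65). For E2f2 they were Cck, which encodes cholecystokinin (0.103), Mcm7, a subunit of the replicative helicase (0.105), and Fen1, the flap endonuclease of lagging strand synthesis (0.13). For E2f1 they were LOC685771 (0.233), Cdca5, which encodes sororin (0.239), and Rnaseh2c (0.249). For E2f4 they were Med10, Fbxl16 and Zranb2, at 0.102 to 0.109. E2f3 lay nearest to Ttc21a, E2f6 to Dctn2, E2f8 to Slc2a12, Tfdp1 to Nhlrc3 and Tfdp2 to LOC100912031.

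Several E2F genes are known targets of E2F proteins, so the promoters were searched where the RefSeq table of GRCr8 held them. It held windows of 300 bases for E2f3, E2f6, E2f7, Tfdp1 and Tfdp2. The E2F words searched were TTTCCCGC, TTTGGCGC, TTTCGCGC and TTTGCCGC, the words of the CHR element, a site of cell cycle genes, were TTTGAA and TTCGAA, and the CCAAT box was CCAAT, each on both strands, and no word lies within another. Of 33469 windows 2.14% held an E2F word, 19.7% a CHR word and 37.5% a CCAAT box. E2f3 held an E2F word, a CHR word and 3 CCAAT boxes, E2f7 held 2 CCAAT boxes and no E2F or CHR word, Tfdp1 and Tfdp2 held 1 CHR word each, and E2f6 held none of these. The stretches of E2f3, which held all motifs and did not pass the test, and of E2f7, which had the largest ratio, are shown from the start of the window, with the matches in capitals. They end before the outermost annotated start of the gene, which lies ahead of the start that the window was built on. A missing match says only that these letters are not in the window.
E2f3, GRCr8 chr17:34810166-34810354, plus strand: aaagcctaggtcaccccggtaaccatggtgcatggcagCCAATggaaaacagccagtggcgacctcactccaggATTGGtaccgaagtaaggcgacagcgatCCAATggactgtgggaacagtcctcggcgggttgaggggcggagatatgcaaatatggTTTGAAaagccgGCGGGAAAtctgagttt
E2f7, GRCr8 chr7:48036653-48036880, plus strand: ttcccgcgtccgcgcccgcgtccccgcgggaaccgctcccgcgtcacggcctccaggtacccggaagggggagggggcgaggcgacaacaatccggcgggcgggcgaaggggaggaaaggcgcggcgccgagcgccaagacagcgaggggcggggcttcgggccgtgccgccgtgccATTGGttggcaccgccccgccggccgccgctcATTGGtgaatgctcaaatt

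The genes that E2F proteins bind at the G1 to S transition had a higher median than the family, a difference that was not tested. Of 42 listed genes 41 were on the array, 27 were called higher and 0 lower, and 30 were higher in all 3 preparations. Of all genes, 4.24% were called higher, 4.69% lower, and 14.2% were higher in all 3 preparations. Without preparation 1 the count of listed genes called higher was 15, with a median log2 ratio of 1.52. In that fit the probes of the whole array called higher fell from 2023 to 515. With all preparations the median log2 ratio of the listed genes was 1.53, and 1.87, 1.83 and 1.01 in preparations 1, 2 and 3. Rrm2, the small subunit of ribonucleotide reductase, was at 4.47 (SE 0.65, adjusted p = 0.245), Brca1 at 3.84 and Mcm5, of the replicative helicase, at 3.62. Genes of the same list that did not pass the call included Cdc6 (-0.13), Orc1 (-0.26) and Hells (-0.97), chosen here after their values were seen. In preparations 1, 2 and 3 Cdc6 was at 0.61, -1.84 and 0.85 and Hells at 0.33, -3.35 and 0.12. Both fitted ratios were thus below 0 through preparation 2 alone. The Hells probe was well above background on 0 of 3 replicating and 1 of 3 quiescent arrays, and its other probe gave 0.63. Of the 33 listed genes with a promoter window, 19 (57.6%) held an E2F word. Those with the word had a median ratio of 1.19 with 11 called higher, and the 14 without it had a median of 2.29 with 11 called higher. Over all genes with a window, the 431 with an E2F word had a median of 0.36 with 13.0% called higher, and the 14136 without had a median of 0.0 with 5.39% called higher. In preparations 1, 2 and 3 these medians were 0.45, 0.63 and 0.02 with the word and 0.08, 0.08 and -0.06 without it.

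Of the pocket proteins, which bind E2F proteins and hold their targets silent, Rbl1 and Rb1 were called higher. Rbl1, which encodes p107, gave 8.28, 9.09 and 8.10 in replicating and 6.40, 6.18 and 7.18 in quiescent β-cells, a log2 ratio of 1.90 (SE 0.47, adjusted p = 0.475). Rb1 gave 10.44, 9.95 and 10.08 against 8.77, 7.46 and 9.83, a ratio of 1.47 (SE 0.51, adjusted p = 0.475), and preparation 3 was 0.25 apart. Rbl2, which encodes p130, gave 9.27, 6.89 and 9.47 against 7.63, 8.59 and 9.03, a ratio of 0.13 (SE 0.68, adjusted p = 0.940). The MuvB core joins E2F4 and p130 in resting cells and B-MYB and FOXM1 later in the cycle. The list of the core with B-MYB and FOXM1 had 7 genes, with 3 called higher and 1 lower. Of all genes, 4.24% were called higher and 4.69% lower. The partners Mybl2, which encodes B-MYB, and Foxm1 were higher, at 3.43 and 3.31. Of the core itself, Lin54 was higher at 1.71 (no value on the quiescent array of preparation 2) and Lin52 lower at -1.52. Lin9, Lin37 and Rbbp4 of the core were not called. Second probes gave smaller ratios for Foxm1 (0.46), Brca1 (1.11) and Rbl2 (-0.66), and the other probes of Lin52 and of Cbx3 differed in sign among themselves. For Rrm2 (5.04), Mcm5 (3.92), Mybl2 (3.71) and Cdkn1a (3.27) the second probe gave a larger ratio. For Ccna2 it gave 2.52 against 2.71.

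The counts of the next lists stand beside shares of 4.24% called higher and 4.69% called lower over all genes. Of 10 cyclins and kinases that act on the pocket proteins, 4 were called higher and 0 lower, with a median of 0.69. They were Cdk1 (4.38), Ccna2 (2.71), Ccne1 (2.09) and Ccne2 (1.26). Of 7 inhibitors of these kinases 2 were called higher, Cdkn1a, which encodes p21, at 1.91 and Cdkn2c, which encodes p18, at 1.57, with a median of 0.89. None of the 4 subunits of ligases that turn over E2F proteins was called (0 of 4 in limma at the unadjusted p, median 0.21). Of the 12 genes of the E2F6 complex 2 were called higher, Cbx3 at 1.98 and L3mbtl2 at 1.16, with a median of 0.32. Of the 5 germline genes silenced by E2F6 that were on the array, 0 were called in either direction, with ratios from -0.40 to 0.21 and a median of -0.08. The 7 apoptosis genes bound by E2F1 had a median of -0.03.

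**Figure D4:**
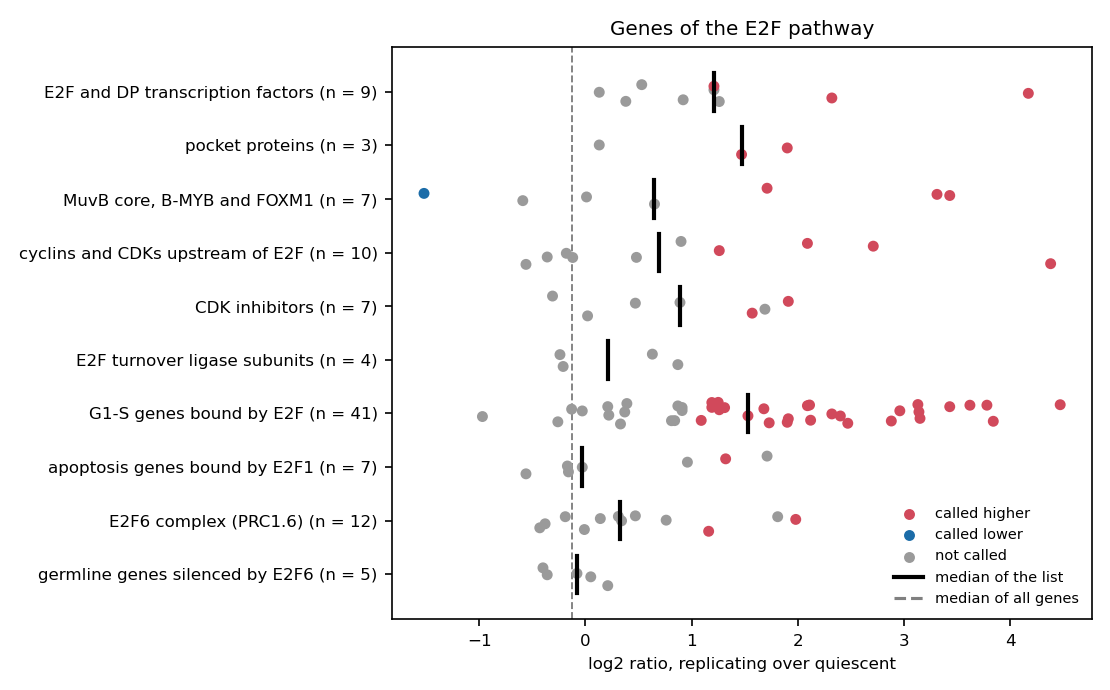
Log2 ratio of replicating over quiescent β-cells (horizontal axis) for each gene of the family and of 9 lists of the E2F pathway, 1 point a gene by its brightest probe, coloured by the call; black bars are list medians and the dashed line is the median of all genes, -0.13. The G1 to S genes have a median of 1.53 and the germline genes of -0.08. Lists share genes, such as Rbl1, Mybl2, Ccne1 and Ccne2.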

How the data were processed

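RNA of 3 replicating and 3 quiescent β-cell samples was extracted with a kit for fixed tissue, amplified by whole transcriptome amplification, labelled with Cy3 and hybridized to single-colour Agilent rat arrays. Per the file headers, the scanner intensity of each spot was read with Feature Extraction 10.7.3.1, and probe positions are on rn4. The authors then applied normexp and quantile normalization and deposited log2 values per spot, which are the main values here. Outlier and control spots were left out, spots of a probe were averaged, and 45598 probes (44652 with a value on every array) were fitted with lmFit and eBayes in limma 3.58.1 (R 4.3.3; data.table, version 1.17.8), with the preparation as a block and Benjamini-Hochberg adjustment over all probes. The fit was tested on simulated data in which a probe had the same spread on all arrays. That test says nothing of how the fit handles an array that stands apart. Fold changes are 2 to the power of the log2 ratio. No read depth exists for arrays, and their number, 3 a group, limits the precision.

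A gene is represented by its probe with the highest mean. Named genes are every member probe, up to 4 called genes of each pathway list by size of the log2 ratio, the 3 pocket proteins, and the 3 genes nearest to a member among those well above background on all arrays; exceptions are marked, and some genes the rule names are not reported here. The members and lists were chosen with earlier results of these data known. The submitters' design text pairs the fractions of a preparation; the correlation of paired deviations from the group means was 0.0561, 0.242 and 0.258. The 14 alternatives (13 for a single probe) were other background offsets (0, 16 and 50, computed from the deposited intensity), other scalings, a filter on dim probes, outlier spots kept, a variance trend, the fit with no block, a gene's median over its probes, and each preparation left out. No rn4 annotation was used here, so exon and UTR positions are not given. Promoter sequence is credited to RefSeq, GRCr8; E2f1, E2f2, E2f4, E2f5 and E2f8 have no entry there.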

Additional observations from a re-analysis of the deposited data

How the results depend on the processing

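The count of E2F and DP genes called higher was 2 to 4 under the 14 alternatives and their median ratio was above 0 in all 14, between 0.65 (without preparation 2) and 1.53 (without preparation 3). The count of G1 to S genes called higher was 27 and fell to 15 without preparation 1, and without each preparation in turn it ranged from 15 to 27. It was 21 under percentile scaling of normexp-corrected signals, 20 under percentile scaling of processed signals, and 28 with a background offset of 0. Counting E2f5 by its description left 3 genes called, an alternative added after seeing the data. Single genes turned sign: E2f8 was -0.40 and -0.85 under scaling to the 75th percentile of normexp-corrected and of processed signals, and without each preparation in turn E2f8 ranged from -0.19 to 0.29, E2f4 from -0.13 to 2.17 and E2f6 from -0.05 to 0.81, all lowest without preparation 2. Those scalings moved the median of all genes from -0.13 to -0.44 and -0.76. Without the replicate block, 878 probes were called lower against 1905 and 99 reached an adjusted p under 0.05 against 0; the members called and their median of 1.21 were the same. Probes called higher and lower numbered 2023 and 1905, and 1596 and 5862 under normexp with percentile scaling, 662 and 3193 under processed signals, 515 and 63 without preparation 1, 1447 and 812 without preparation 2, and 5092 and 5628 without preparation 3. An adjusted p under 0.05 was reached by 719 probes under normexp with percentile scaling, 204 under cyclic loess, 61 under the variance trend and 84 without preparation 2. Among members, E2f7 was at 1.81e-05, 0.00708 and 0.0464 in the first, second and last of these, E2f2 at 0.0357 in the first, and the description-named E2f8 probe at 0.0283, 0.0174 and 0.0183 under the first, the second and no block. E2f1 passed the unadjusted threshold under 3 alternatives, percentile scaling of normexp values (1.22), cyclic loess (1.43) and without preparation 2 (2.11). With the median over a gene's probes E2f7 was 2.09 against 4.17. Tfdp2 missed the call under both percentile scalings (0.71 and 1.08). The cause of these changes was not tested.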
